A study of Mus musculus with 6 samples.

Results

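The genes described here encode 7 subunits of the GABA-A receptor, Gabra2, Gabra3, Gabra4, Gabra5, Gabrb1, Gabrb2 and Gabrg3. They were picked out by gene symbol, with earlier results of these data known, and are 7 of the 32285 genes counted in 6 single-nucleus RNA sequencing libraries of the prelimbic (PL) part of the medial prefrontal cortex. All 6 libraries came from male C57BL/6 mice, and each was made from tissue pooled from 3 males that were not brothers. Run males were raised by dams that had a running wheel in the cage from shortly after birth until weaning, and Sed males by dams in standard cages. From weaning on, males were housed in groups (GH) or alone (SI). Cohort 1 held 1 Run GH and 1 Sed GH library from males that had gone through a dominance test and were picked for a top or bottom rank within their group, and cohort 2 held 4 libraries, 1 for each pairing of mother and housing, from males that had not been tested. The labels give postnatal day 21, the day of weaning, as the age, while the methods of the study place tissue collection in adulthood. The paper describes a separate single-nucleus sequencing experiment for each cohort. Behavioural testing, the choice by rank, the mothers and the experiment all changed with the cohort. These cannot be told apart in any difference between cohorts. In cohort 1 an effect of rank and an effect of the mother may also not be separable. Because mice were pooled, the spread between libraries is not the spread between mice.

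GABA-A receptors are chloride channels opened by the inhibitory transmitter GABA, and each is a pentamer that usually joins alpha, beta and gamma subunits. GABA binds between an alpha and a beta subunit, the classical benzodiazepine site lies between an alpha and a gamma subunit, and the choice of alpha subunit sets much of the receptor's kinetics, pharmacology and place in the membrane. In cortex, receptors with the alpha 2 subunit are known at synapses and at the axon initial segment of pyramidal neurons, while those with alpha 4 or alpha 5 are known mainly outside synapses, where they carry tonic inhibition.

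The 7 genes lie in clusters and alone. On mm10 with GENCODE M21 gene models, chromosome 5 holds Gabra2 (chr5:70957597-71095849, minus strand), Gabra4 (chr5:71569749-71658308, minus strand) and Gabrb1 (chr5:71658113-72149037, plus strand), and chromosome 7 holds Gabrg3 (chr7:56716465-57387188, minus strand) and Gabra5 (chr7:57407672-57510059, minus strand). Gabrb2 lies on chromosome 11 (chr11:42419757-42629028, plus strand) and Gabra3 on the X chromosome (chrX:72432681-72656848, minus strand). Gabra4 and Gabrb1 start head to head on opposite strands and overlap by 196 bases at their 5′ ends. The RefSeq promoter table, on GRCm38.p6, matched 7 of 7 members with 11 windows of 300 bases. The 4 windows printed here belong to the overlapping pair on chromosome 5 and to the neighbours Gabrg3 and Gabra5 on chromosome 7, shown because the levels of each pair are compared across classes and because Gabrg3 and Gabra5 held most of the calls between cohorts. Of the windows of Gabrb1, that of the first start is printed. Each runs 5′ to 3′ on the gene's own strand, from 250 bases before the start to 50 bases after it, and capitals mark a GC box (GGGCGG on either strand).
Gabra4, chr5:71658259-71658558, minus strand: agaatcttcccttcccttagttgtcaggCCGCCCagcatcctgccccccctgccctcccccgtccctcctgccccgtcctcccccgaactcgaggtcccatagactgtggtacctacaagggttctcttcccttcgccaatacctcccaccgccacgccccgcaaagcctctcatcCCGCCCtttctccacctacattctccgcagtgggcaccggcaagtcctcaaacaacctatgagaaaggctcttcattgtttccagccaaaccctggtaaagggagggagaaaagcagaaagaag
Gabrb1, chr5:71657671-71657970, plus strand: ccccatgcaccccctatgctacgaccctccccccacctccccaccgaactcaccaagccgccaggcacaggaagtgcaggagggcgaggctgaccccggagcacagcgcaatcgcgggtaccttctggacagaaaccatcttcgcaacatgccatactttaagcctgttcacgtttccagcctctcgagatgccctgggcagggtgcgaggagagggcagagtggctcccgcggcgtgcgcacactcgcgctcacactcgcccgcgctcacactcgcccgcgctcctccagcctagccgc
Gabrg3, chr7:57387166-57387465, minus strand: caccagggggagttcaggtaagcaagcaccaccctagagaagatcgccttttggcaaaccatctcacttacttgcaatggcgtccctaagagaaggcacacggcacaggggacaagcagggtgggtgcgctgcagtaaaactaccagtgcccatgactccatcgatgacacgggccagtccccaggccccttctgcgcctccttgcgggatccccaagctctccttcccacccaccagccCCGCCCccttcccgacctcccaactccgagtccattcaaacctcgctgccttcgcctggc
Gabra5, chr7:57510010-57510309, minus strand: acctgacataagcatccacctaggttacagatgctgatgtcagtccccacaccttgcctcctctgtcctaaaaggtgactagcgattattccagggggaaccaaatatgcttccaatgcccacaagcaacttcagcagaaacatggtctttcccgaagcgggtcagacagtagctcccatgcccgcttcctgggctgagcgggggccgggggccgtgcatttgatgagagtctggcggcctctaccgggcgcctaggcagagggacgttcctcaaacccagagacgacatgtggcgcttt
The Gabra4 window held 2 GC boxes, the Gabrg3 window 1, and the Gabrb1 and Gabra5 windows 0. Over the members, 4 of 11 windows held a GC box, against 35.7% of all 32851 promoters of the same length. A TATA box (TATAAA on either strand) was in 3 of the 11 windows, against 13.6% of all promoters. These were 1 Gabrb2 window and both Gabra3 windows, which overlap and share 1 match. The cyclic AMP response element (TGACGTCA on either strand) was in 0 of the 11 windows, against 1.79%. GC content of the windows ran from 39.3% to 70.0%, and the median of all promoters was 52.7%. These matches describe letters in the windows and are no sign that a factor binds there.

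After limits on genes, UMIs (unique molecular identifiers, each marking 1 RNA molecule) and mitochondrial content, 42599 nuclei were kept, 4998 to 9936 per library, and median depth ran from 1637 UMIs per nucleus in Sed GH of cohort 2 to 6250 in Sed GH of cohort 1. Background droplets were taken by their UMI count to hold free RNA and no nucleus, which was not tested. They held 18.8% to 19.1% of the median nucleus's UMIs in cohort 1 and 4.25% to 7.71% in cohort 2. Any pair of libraries shared 5 to 22 kept barcodes. Nuclei were clustered with all genes of the Gabr family left out and grouped into 15 classes by fixed marker genes, and each class name here means nuclei that resembled that class by its markers. Summed pyramidal markers, 6 of 6 detected, stood at 19.6% to 33.7% of their level in pyramidal nuclei in inhibitory nuclei, 22.0% to 46.8% in astrocytes, 31.7% to 51.9% in OPCs (oligodendrocyte precursor cells), 49.9% to 77.0% in oligodendrocytes and 62.9% to 77.9% in microglia. The part of neuronal RNA in a glial value was not tested except where a value with free RNA subtracted is given. Levels are CPM, the UMIs of a gene scaled to a common total of UMIs of its class in that library, and the 6 values are given with Run before Sed, so that cohort 1 gives its Run GH and Sed GH libraries and cohort 2 its GH pair and then its SI pair. Means and SDs of levels are over all 6 libraries and so span 4 groups.

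The subunits differed in where they were found. Gabra2 was highest in upper-layer pyramidal nuclei, Gabra5 in L5 ET (layer 5 extratelencephalic) nuclei and Gabrb1 in astrocytes. Gabrb2 was highest in NPY/Lamp5 interneurons, and Gabrg3 in L5 NP (near-projecting layer 5) and PV (parvalbumin) nuclei. For Gabra5 the range of the L5 ET class overlapped that of the next class, NPY/Lamp5 interneurons. Of 35 comparisons of a member between 2 classes within each library, 28 went the same way in all 6 libraries, 12 higher and 16 lower in the class named first. Many genes separate cell classes, and this has to be read against all genes tested. Between inhibitory and pyramidal nuclei 6 of 7 members went one way, against 58.8% of all genes, and between L2/3 and L6 corticothalamic nuclei 7 of 7, against 45.6%. Between PV and SST (somatostatin) nuclei 6 of 7 members went one way, against 26.5% of all genes. The counts were 4 of 7 between L2/3 and all layer 5 nuclei, against 47.0%, and 5 of 7 between astrocytes and pyramidal nuclei, against 55.1%. A member that went one way in 6 libraries has an exact 2-sided sign-flip p = 0.03125, the smallest that 6 libraries allow. Adjusted over all genes of its comparison (Benjamini-Hochberg), that p became 0.0531 for inhibitory against pyramidal nuclei and 0.0567 for astrocytes. It became 0.0665 for L2/3 against layer 5, 0.0685 for L2/3 against L6 corticothalamic and 0.118 for PV against SST. Every gene that went one way shares this smallest p, so the adjusted value follows from the share of all genes that did. No gene of these comparisons could pass 0.05 after adjustment, and the adjusted test therefore cannot decide on a member.

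**Figure D1:**
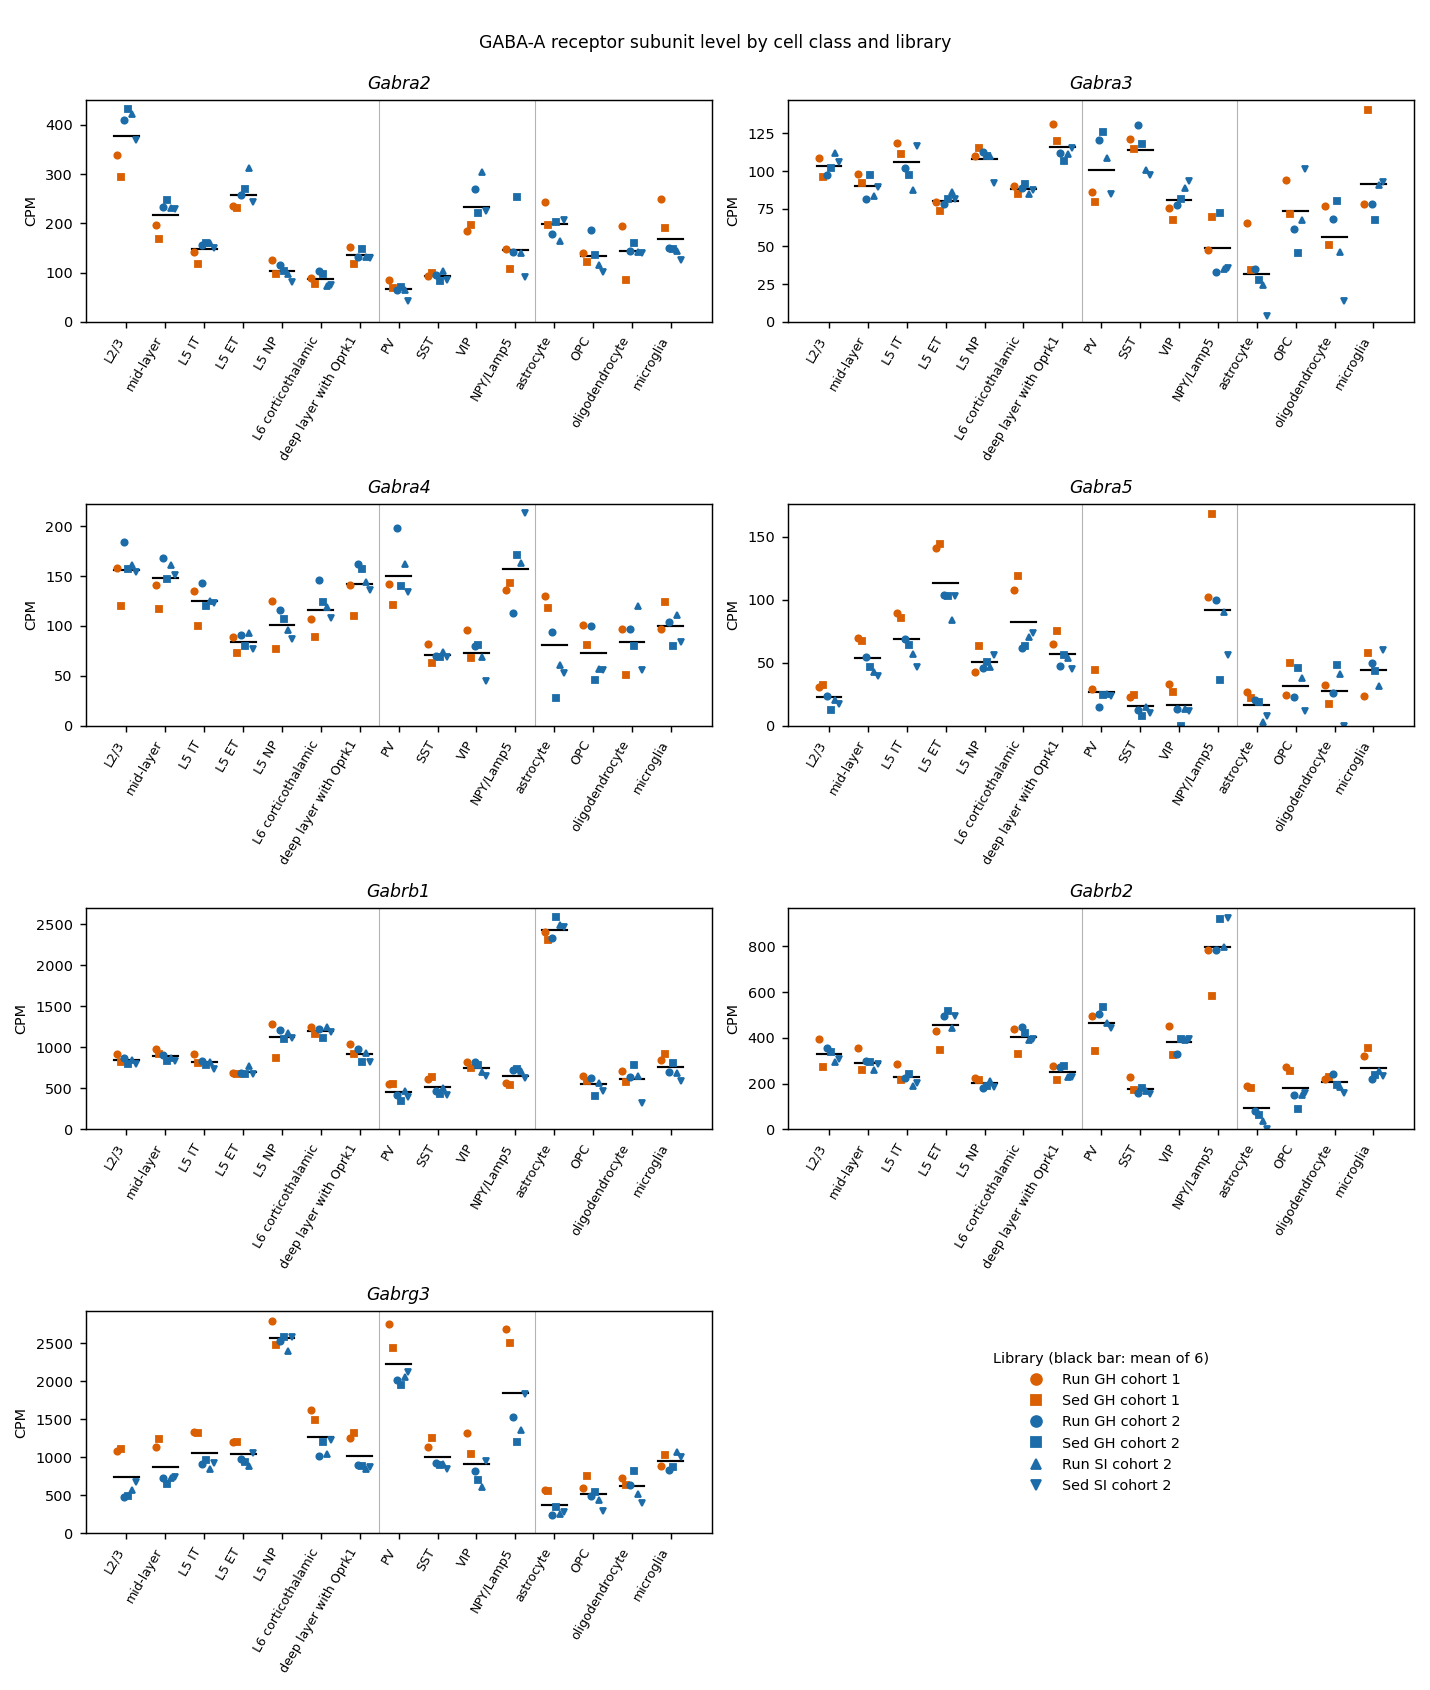
Level of each of the 7 subunit genes (CPM, 1 panel per gene) in 15 cell classes, with 1 point per library and the mean over the 6 libraries. Gabrb1 in astrocytes and Gabrb2 in NPY/Lamp5 nuclei lie clear of every other class, while the points of neighbouring classes overlap for the other genes.

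Gabra2 encodes the alpha 2 subunit. In L2/3 nuclei it stood at 338 and 294 CPM in cohort 1 and 410.0, 432, 421 and 369 CPM in cohort 2, a mean of 377 ± 53.9 (SD, n = 6). In L6 corticothalamic nuclei it stood at 89.8 and 77.9 CPM in cohort 1 and 103, 98.0, 73.7 and 74.7 CPM in cohort 2. Every L2/3 value lay above every L6 corticothalamic value, by a mean of 2.13 ± 0.24 on the log2 scale (SD, n = 6), or 4.38-fold. Shares of nuclei with a UMI were compared after thinning each nucleus to 1000 UMIs, which left out shallower nuclei. Those were all in Sed GH of cohort 2, where 4278 of 4902 pyramidal nuclei, 1128 of 1363 L2/3 nuclei, 148 of 199 PV nuclei and 39 of 100 astrocytes remained. At a common 1000 UMIs, 24.0 to 33.8% of L2/3 nuclei per library held a Gabra2 UMI, against 6.93 to 9.23% of L6 corticothalamic nuclei, and without thinning the shares were 48.6 to 82.5% and 15.4 to 39.7%. The layers between them were intermediate, with 258 ± 30.4 CPM in L5 ET (extratelencephalic), 217 ± 29.3 in mid-layer and 148 ± 16.7 in L5 IT (intratelencephalic) nuclei. Among interneurons the VIP class was highest at 234 ± 45.4 CPM and the PV class lowest of all 15 classes at 65.9 ± 13.9 CPM. The PV class lay below the SST class in 6 of 6 libraries, with a difference of -0.52 ± 0.31 log2. This was -0.32 over cohort 1 and -0.62 over cohort 2, each alone and not tested. The range over libraries of the L2/3 class still met that of the second class, L5 ET, although L2/3 was higher within each of the 6 libraries.

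Gabra5, the alpha 5 subunit gene, was lower in L2/3 nuclei than in deeper layers, opposite to Gabra2, although L5 ET nuclei stood high for both. In L5 ET nuclei it stood at 141 and 144 CPM in cohort 1 and 103, 103, 83.5 and 103 CPM in cohort 2, a mean of 113 ± 24.1 (SD, n = 6). In L2/3 nuclei it stood at 30.5 and 32.1 CPM in cohort 1 and 23.5, 12.8, 20.7 and 16.8 CPM in cohort 2. The ranges did not overlap, and L2/3 was lower in 6 of 6 libraries than all layer 5 nuclei together, with a difference of -1.94 ± 0.36 log2 (SD, n = 6), and than L6 corticothalamic nuclei, with -1.88 ± 0.32. At a common 1000 UMIs, 6.72 to 14.5% of L5 ET and 1.24 to 3.66% of L2/3 nuclei per library held a Gabra5 UMI, and 21.3 to 56.7% and 2.20 to 19.2% without thinning. L6 corticothalamic nuclei had 82.6 ± 24.3 CPM and NPY/Lamp5 nuclei 92.0 ± 45.4 CPM. Across interneurons as a whole Gabra5 was lower than in pyramidal nuclei in 6 of 6 libraries, with a difference of -1.14 ± 0.25 log2, and the SST class had the lowest mean of all classes at 15.3 ± 6.61 CPM. Gabra2 and Gabra5 were thus the members with the widest difference between L2/3 and L6 corticothalamic nuclei, in opposite directions.

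Gabra4, the alpha 4 subunit gene, varied less. NPY/Lamp5, L2/3 and PV nuclei had 157 ± 34.5, 156 ± 20.6 and 149.6 ± 27.3 CPM (SD, n = 6), and these 3 classes did not differ beyond their spread. In PV nuclei it stood at 142 and 121 CPM in cohort 1 and 198, 139.9, 162 and 134 CPM in cohort 2, against 81.9 and 62.4 CPM in cohort 1 and 69.5, 68.5, 73.4 and 69.3 CPM in cohort 2 in SST nuclei. Each PV value lay above each SST value, and the mean difference was 1.06 ± 0.25 log2. L2/3 nuclei lay above L6 corticothalamic nuclei by 0.44 ± 0.09 log2 and above layer 5 by 0.56 ± 0.08 log2, in 6 of 6 libraries each. Gabra3, the alpha 3 subunit gene on the X chromosome, ran over the 11 neuronal classes from 48.9 ± 17.8 CPM in NPY/Lamp5 to 116 ± 8.76 CPM in deep-layer nuclei with Oprk1 (the kappa opioid receptor gene). Inhibitory and pyramidal nuclei differed by -0.04 ± 0.18 log2 (exact sign-flip p = 0.531). PV and SST nuclei differed by -0.19 ± 0.28 (p = 0.219, same exact test). Neither difference was larger than the spread between libraries, but that between PV and SST nuclei changed with the cohort. Over each cohort alone, which was not tested, it was -0.52 over cohort 1 and -0.02 over cohort 2. L2/3 nuclei were above L6 corticothalamic nuclei in 6 of 6 libraries, by 0.24 ± 0.10 log2.

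Gabrb1, the beta 1 subunit gene, was the astrocyte member. In astrocytes it stood at 2402 and 2308 CPM in cohort 1 and 2335, 2591, 2492 and 2472 CPM in cohort 2, a mean of 2433 ± 106 (SD, n = 6). In pyramidal nuclei it stood at 965 and 911 CPM in cohort 1 and 928, 829.7, 913 and 840.5 CPM in cohort 2. All 6 astrocyte values lay above all values of the other 14 classes, and the difference from pyramidal nuclei was 1.44 ± 0.14 log2, 2.71-fold. With the expected free RNA subtracted the astrocyte mean was 2731 CPM, and the free RNA itself held 945 to 1076 CPM in cohort 1 and 372 to 494 CPM in cohort 2. In the nuclei of at least 1000 UMIs, thinned to that number, 82.4 to 88.3% of astrocyte nuclei per library held a Gabrb1 UMI, against 54.0 to 59.9% of pyramidal nuclei, and without thinning the shares were 90.0 to 99.5% and 72.1 to 98.3%. Among neurons L6 corticothalamic nuclei had 1195 ± 53.3 CPM and L5 NP nuclei 1127 ± 143 CPM, and the PV class was lowest at 458 ± 87.0 CPM. Interneurons were below pyramidal nuclei in 6 of 6 libraries, with a difference of -0.71 ± 0.11 log2. On average the other 6 members stood no higher in astrocytes than in pyramidal nuclei. Gabra2 differed by -0.16 ± 0.29 log2 (exact sign-flip p = 0.250) and Gabra4 by -0.87 ± 0.88 (p = 0.0938, same exact test), and neither kept 1 direction over the cohorts. The mean for Gabra2 was 0.17 over cohort 1 and -0.32 over cohort 2, and that for Gabra4 was 0.05 over cohort 1 and -1.33 over cohort 2. Gabra3, Gabra5, Gabrb2 and Gabrg3 were lower in astrocytes in 6 of 6 libraries, with mean log2 differences from -2.59 (Gabrb2) to -1.51 (Gabrg3). Over each cohort alone, which was not tested, the mean for Gabrb2 was -0.77 over cohort 1 and -3.50 over cohort 2, for Gabra3 -1.07 over cohort 1 and -2.47 over cohort 2 and for Gabra5 -1.62 over cohort 1 and -2.44 over cohort 2. In Sed SI the astrocyte values of Gabrb2 and of Gabra3 each rest on 1 UMI, and without that library the means were -1.83 for Gabrb2 and -1.46 for Gabra3. In nuclei of at least 1000 genes Gabra5 (-1.71) and Gabrg3 (-1.14) were no longer lower in all 6 libraries, Sed GH of cohort 2, the shallowest, being the exception (exact sign-flip p = 0.0625 for each).

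Gabrb2, the beta 2 subunit gene, was highest in NPY/Lamp5 nuclei, a class of interneurons that includes neurogliaform cells. It stood there at 784 and 585 CPM in cohort 1 and 785, 921, 796 and 924 CPM in cohort 2, a mean of 799 ± 124 (SD, n = 6). The next classes, PV and L5 ET, had 465 ± 66.7 and 455 ± 62.8 CPM, and no value of any other class reached the lowest NPY/Lamp5 library. PV nuclei stood at 494 and 345 CPM in cohort 1 and 506, 535, 467 and 444 CPM in cohort 2, against 228 and 171 CPM in cohort 1 and 161, 179, 168 and 154 CPM in cohort 2 in SST nuclei. The 2 interneuron classes did not overlap, and PV was higher by 1.39 ± 0.26 log2, 2.63-fold. Over all interneurons the difference from pyramidal nuclei was smaller, 0.27 ± 0.12 log2, in 6 of 6 libraries.

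Gabrg3, the gamma 3 subunit gene, was highest in L5 NP nuclei at 2792 and 2483 CPM in cohort 1 and 2534, 2577, 2404 and 2587 CPM in cohort 2, a mean of 2563 ± 131 (SD, n = 6). In PV nuclei it stood at 2756 and 2435 CPM in cohort 1 and 2020.0, 1948, 2060.4 and 2121 CPM in cohort 2, and the ranges of these 2 classes overlapped. SST nuclei stood lower, at 1138 and 1255 CPM in cohort 1 and 928, 902, 918 and 841 CPM in cohort 2. PV exceeded SST nuclei in 6 of 6 libraries by 1.16 ± 0.13 log2, 2.24-fold. At a common 1000 UMIs, 80.5 to 89.3% of PV nuclei per library held a Gabrg3 UMI, against 50.5 to 66.0% of SST nuclei and 12.7 to 39.3% of astrocytes. Without thinning the shares were at least 86.9%, 53.2 to 93.0% and 22.0 to 86.3%. L2/3 nuclei were the lowest pyramidal class, at 734 ± 287 CPM, below L6 corticothalamic nuclei in 6 of 6 libraries. This layer difference was -0.51 over cohort 1 and -1.03 over cohort 2 on the log2 scale. The same holds against layer 5, where it was -0.36 over cohort 1 and -1.02 over cohort 2. Inhibitory nuclei were higher than pyramidal nuclei in 6 of 6 libraries, by 0.63 ± 0.10 log2.

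**Figure D2:**
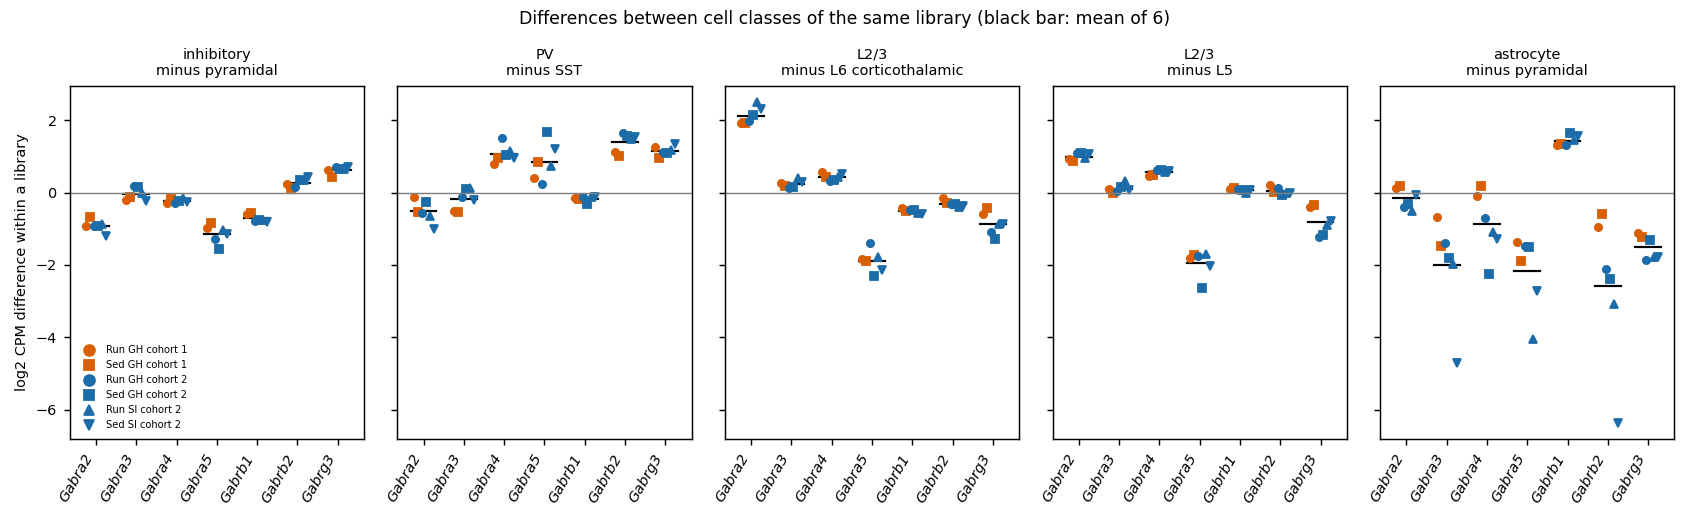
Log2 difference in CPM between 2 cell classes within a library, for 5 pairs of classes (panels) and 7 subunit genes, with 1 point per library and the mean of the 6. Gabra2 lies above 0 and Gabra5 below 0 between L2/3 and L6 corticothalamic nuclei, and Gabrb2, Gabrg3 and Gabra4 lie above 0 between PV and SST nuclei.

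Set per kb of gene span, a scale used because intronic reads were counted, the highest mean levels were 4.96 CPM per kb for Gabrb1 in astrocytes, 3.82 for Gabrb2 in NPY/Lamp5 nuclei, 3.82 for Gabrg3 in L5 NP nuclei and 2.73 for Gabra2 in L2/3 nuclei. Gabra4 reached 1.77 CPM per kb in NPY/Lamp5, Gabra5 1.10 in L5 ET and Gabra3 0.518 in deep-layer nuclei with Oprk1. Within L2/3 nuclei the order per kb was led by Gabra2 at 2.73, with Gabra4 at 1.76, Gabrb1 at 1.72, Gabrb2 at 1.57, Gabrg3 at 1.09, Gabra3 at 0.462 and Gabra5 at 0.222 CPM per kb. Within PV nuclei it was led by Gabrg3 at 3.31 and Gabrb2 at 2.22, and Gabra2 was at 0.477 CPM per kb. Gabra2 led in L2/3 and Gabrg3 in PV nuclei in each cohort alone, but in L2/3 nuclei the order below Gabra2 changed with the cohort. There Gabrb1 stood at 1.78, Gabrg3 at 1.63, Gabrb2 at 1.59 and Gabra4 at 1.57 CPM per kb in cohort 1, against 1.69, 0.826, 1.56 and 1.85 CPM per kb in cohort 2. The order between genes depends on the scaling by span, and whether counts grow with span was not tested. In plain CPM the L2/3 order was led by Gabrb1 at 843 and Gabrg3 at 734. Gabra2 followed at 377, Gabrb2 at 328 and Gabra4 at 156 CPM.

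Over the 15 class means, the pair of members most alike was Gabrb2 and Gabrg3 (Pearson r of log2 levels 0.61) and the least alike Gabra2 and Gabrg3 (-0.51). The overlapping neighbours Gabra4 and Gabrb1 had r = -0.01 and the neighbours Gabra5 and Gabrg3 0.44. These values describe 15 classes that share the same libraries and depth. Genes of like pattern were sought in the same way among 9837 genes outside the family. They were picked for the highest r, which was not tested. Those most like Gabra2 were Gm12371 (0.85), Eda (0.82) and Taf2 (0.80). For Gabra5 they were Mfsd4a (0.88), Asap1 (0.86) and Sgcz (0.86), for Gabra4 Itpr1 (0.79), Atrnl1 (0.78) and Prkci (0.76), and for Gabra3 Rnf123 (0.89), Cep126 (0.89) and Gm38251 (0.87). For Gabrb1 they were Lix1 (0.93), Cpe (0.89) and Usp53 (0.89), for Gabrb2 Serac1 (0.93), Slco3a1 (0.88) and Plppr4 (0.87), and for Gabrg3 they included Paqr9 (0.92) and Sh3rf3 (0.92).

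The study asked how the maternal environment shapes adult males, so each member was compared between Run and Sed libraries within each class. The fit over the 6 libraries had cohort, maternal environment and housing as terms and no interaction. In it 104 of 105 pairs of a member and a class could be tested (Gabra5 in oligodendrocytes was too low). Its maternal term is a single difference shared by GH and SI males, and its housing term one shared by Run and Sed males. The paper instead compared pairs of groups, among them Run GH with Sed GH and Sed SI with Sed GH. In PV interneurons it named GABA-A subunits among the genes shared by both comparisons, nearly all of them lower. Those shared genes came from cohort 2, so the same Sed GH males stood in both comparisons. The paper used a rank sum test over single nuclei, with the mice of a group pooled. The fit here tests counts summed per library, so its calls and those of the paper are not like for like. Here Sed SI against Sed GH was not tested alone. The maternal term called 0 of 104 at an adjusted p under 0.05, against 0.058% of all gene and class pairs (85 of 146552), and DESeq2 also called 0. The smallest adjusted p was 0.268, 2 pairs had an unadjusted p under 0.05, and the fitted log2 differences ran from -0.64 to 1.00.

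Gabra4 in pyramidal nuclei stood at 137 and 104 CPM in cohort 1 and 152, 131, 131 and 128 CPM in cohort 2. Run exceeded Sed within each of the 3 pairs, with log2 ratios of 0.41 (95% counting interval 0.34 to 0.47), 0.21 (95% counting interval 0.12 to 0.30) and 0.04 (95% counting interval -0.04 to 0.11), and the values of the 2 groups overlapped across cohorts. The fitted difference was 0.17 (SE 0.111, adjusted p = 0.741) and did not pass. Gabra4 was higher in the Run library in all 3 pairs in 12 of 15 classes, and Gabrb1 in 10 of 15, against 16.5% of all gene and class pairs on the same CPM scale. For the other 5 members this count was between 0 and 3 of 15. Classes of a library share its depth and tissue and are not independent of each other. Gabrb1 in pyramidal nuclei stood at 965 and 911 CPM in cohort 1 and 928, 829.7, 913 and 840.5 CPM in cohort 2, with a fitted difference of 0.07 (SE 0.0770, adjusted p = 0.831). Among interneurons, Gabrg3 in PV nuclei had a fitted difference of 0.05 (SE 0.127, adjusted p = 0.989) and Gabrb2 0.17 (SE 0.142, adjusted p = 0.925). Gabra2, Gabra3, Gabra4 and Gabrb1 in PV nuclei also had positive differences, of 0.30, 0.13, 0.30 and 0.15 (edgeR, adjusted p = 0.880 to 0.961). Only Gabra5 had a negative one there. Gabra5 in PV nuclei was at 29.4 and 43.7 CPM in cohort 1 and 14.8, 24.5, 24.8 and 23.8 CPM in cohort 2, with the 2 Sed GH values above the Run GH value of their cohort and a fitted difference of -0.40 (SE 0.285, adjusted p = 0.916).

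Leaving out either library of cohort 1 gave 1 call, Gabrg3 in L6 corticothalamic nuclei. It stood at 1627 and 1492 CPM in cohort 1 and 1014, 1199, 1042 and 1230.0 CPM in cohort 2, with Run above Sed in cohort 1 and below Sed in both pairs of cohort 2. The fitted difference over all 6 libraries was -0.16 (SE 0.117, adjusted p = 0.870). It was -0.32 without Run GH of cohort 1 (adjusted p = 0.00310) and -0.32 without Sed GH of cohort 1 (adjusted p = 0.00259, edgeR in both), and in those fits the remaining library of cohort 1 takes no part in the maternal difference.

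Socially isolated males were in cohort 2 alone, where both maternal groups were housed both ways. The housing term comes from the fit over all 6 libraries. Of the members, 1 of 104 pairs was called for housing, against 0.00887% of all gene and class pairs (13 of 146552), and 5 had an unadjusted p under 0.05. The called pair was Gabrb2 in astrocytes, lower in SI, where 0.114% of genes were called. It stood at 189 and 183 CPM in cohort 1 and 79.9, 64.8, 35.4 and 3.75 CPM in cohort 2, from 363, 185, 59, 7, 22 and 1 UMIs. Both SI values lay below both GH values of cohort 2, but the Sed SI value rests on 1 UMI, and the cohort 1 values were higher than all of cohort 2. The log2 ratio of SI to GH was -1.17 (95% counting interval -1.95 to -0.45) in Run and -4.11 (95% counting interval -9.61 to -1.15) in Sed. The fitted difference was -1.52 (SE 0.366, adjusted p = 0.0290). Summed pyramidal markers in these astrocytes stood at 37.5% and 22.0% of their pyramidal level in the GH libraries of cohort 2 and at 30.7% and 27.1% in the SI libraries. The call was lost with DESeq2 (log2 -1.66, adjusted p = 1.00), with doublets removed (-0.94, adjusted p = 0.930) and after thinning to 1000 UMIs (-0.17, adjusted p = 0.997). It was also lost without Run GH of cohort 1 (adjusted p = 0.0609), Sed GH of cohort 1 (0.0674), Run GH of cohort 2 (0.880) or Sed SI (0.936). The fit to cohort 2 alone gave -1.45 (adjusted p = 0.164).

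No other member was called for housing. Next by p was Gabra5 in astrocytes, which stood at 27.0 and 21.7 CPM in cohort 1 and 20.3, 18.5, 3.22 and 7.49 CPM in cohort 2, from 52, 22, 15, 2, 2 and 2 UMIs, with a fitted difference of -2.03 (SE 0.769, adjusted p = 0.659). Gabrg3 in L2/3 nuclei was higher in SI than in GH within both maternal groups of cohort 2, with log2 ratios of 0.25 (95% counting interval 0.19 to 0.32) in Run and 0.47 (95% counting interval 0.37 to 0.57) in Sed, and the fitted difference was 0.38 (SE 0.134, adjusted p = 1.000). Gabra2 in L6 corticothalamic nuclei was lower in SI in both, at 73.7 and 74.7 CPM against 103 and 98.0 CPM in GH, with a fitted difference of -0.43 (SE 0.150, adjusted p = 1.000). Gabra5 in L5 IT nuclei had a fitted difference of -0.35 (SE 0.149, adjusted p = 1.000). None of these 4 passed after adjustment. In PV nuclei, the class in which the paper named GABA-A subunits, the fitted housing differences had mixed signs and none was called. They were -0.18 for Gabra2, -0.27 for Gabra3, -0.19 for Gabra4 and -0.16 for Gabrb2. For Gabra5, Gabrb1 and Gabrg3 they were 0.49, 0.15 and 0.09.

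**Figure D3:**
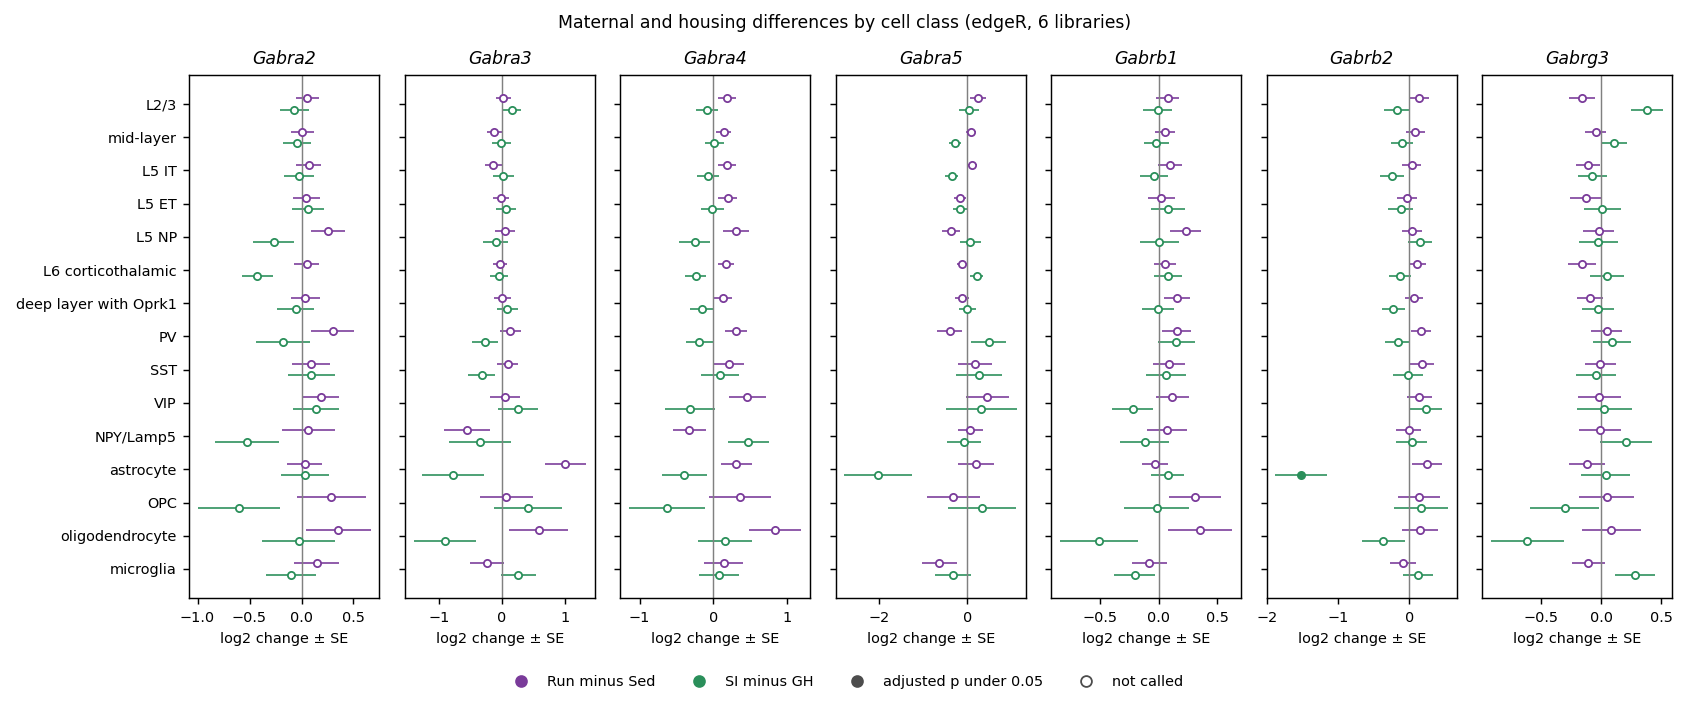
Fitted log2 change with its SE for the maternal term (Run minus Sed) and the housing term (SI minus GH), for 7 subunit genes in 15 cell classes, from edgeR over 6 libraries. Filled points have an adjusted p under 0.05, and the only one is Gabrb2 in astrocytes for housing, a call that was lost under several alternatives.

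Most calls among the members lay between the cohorts. Of 104 pairs of a member and a class, 22 were called, all 22 lower in cohort 2, against 27.5% of all gene and class pairs called in either direction and 12.4% called lower in cohort 2. Gabrg3 made up 10 of them, Gabra5 7, Gabrb1 2, and Gabra3, Gabra4 and Gabrb2 1 each, while Gabra2 had 0 of 15. The median share of mitochondrial UMIs per nucleus also moved with the cohort, at 0.0136% to 0.0336% in cohort 1 and 0.109% to 0.329% in cohort 2, and its part in the differences of the members and their partners was not tested. The number of calls was 9 without Run GH of cohort 2, 13 without Sed GH of cohort 2 and 40 without Sed GH of cohort 1, all lower in cohort 2. Without Run GH of cohort 1 it was 26, with 19 lower and 7 higher in cohort 2. The higher calls were Gabra2 in L2/3 (0.37) and mid-layer nuclei (0.42), Gabrb2 in L5 ET (0.62) and PV nuclei (0.52), Gabrb1 in L5 NP nuclei (0.33), and Gabra4 in L6 corticothalamic nuclei (0.42) and deep-layer nuclei with Oprk1 (0.45). Scaling by plain library totals raised the median difference of all genes by up to 0.19 on the log2 scale. On that scale 19 pairs were called, 3 of them higher in cohort 2, namely Gabra2 in L2/3 (0.42) and mid-layer nuclei (0.39) and Gabra4 in L6 corticothalamic nuclei (0.47), and 8 of 104 pairs changed sign. The share of all gene and class pairs called under each alternative is not given here. A change in these counts is therefore not read as particular to the members.

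Gabrg3 was lower in cohort 2 in upper-layer nuclei. In L2/3 nuclei it stood at 1083 and 1103 CPM in cohort 1 and 477, 492, 568 and 679.6 CPM in cohort 2. The 2 values of cohort 1 lay far above the 4 of cohort 2, and the fitted difference was -1.36 (SE 0.135, adjusted p = 1.75e-04). Mid-layer nuclei stood at 1136 and 1236 CPM in cohort 1 and 726, 653, 728 and 738 CPM in cohort 2, also without overlap, with a difference of -0.93 (SE 0.109, adjusted p = 1.94e-04). L5 IT and deep-layer nuclei with Oprk1 differed by -0.64 (SE 0.123, adjusted p = 0.00216) and -0.63 (SE 0.134, adjusted p = 0.00183). These 4 calls held under all 14 alternatives. In the free RNA Gabrg3 held 906 to 1076 CPM in cohort 1 and 240.4 to 337 CPM in cohort 2. With free RNA subtracted the L2/3 difference was -1.33, and with nuclei thinned to 1000 UMIs it was -1.34. The cohorts were clustered apart, and L2/3 nuclei formed 1 cluster in cohort 1 and 2 in cohort 2. In both clusters of cohort 2 Gabrg3 was lower than in the cluster of cohort 1, at 545 to 745 CPM in the larger and 349 to 617 CPM in the smaller.

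L5 NP nuclei, the class with the most Gabrg3, were not called (log2 difference -0.15, SE 0.162, adjusted p = 0.566), nor were L5 ET nuclei (log2 difference -0.40, SE 0.156, adjusted p = 0.0874). Both were called lower in cohort 2 without Sed GH of cohort 1, at -0.33 (adjusted p = 0.00104) in L5 NP and -0.53 (adjusted p = 6.1e-05) in L5 ET nuclei, and L5 ET nuclei also with no filter on low counts, at -0.40 (adjusted p = 0.0492). Whether the classes differed from each other in the size of this difference was not tested. In interneurons Gabrg3 was called lower in cohort 2 in all 4 classes, with log2 differences of -0.48 (SE 0.156, adjusted p = 0.0262) in PV, -0.47 (SE 0.160, adjusted p = 0.0314) in SST, -0.66 (SE 0.219, adjusted p = 0.0492) in VIP and -0.92 (SE 0.213, adjusted p = 0.00275) in NPY/Lamp5 nuclei. These calls were less stable. After thinning to 1000 UMIs the differences were -0.19 in PV (adjusted p = 0.456) and -0.18 in SST (adjusted p = 0.486), and each of the 4 calls was lost without Run GH of cohort 2 and also without Sed GH of cohort 2. The PV and SST calls were also lost without Run SI or Sed SI, and the VIP call without Run GH of cohort 1. Over all 14 alternatives the PV call held under 7, the SST call under 5, the VIP call under 6 and the NPY/Lamp5 call under 12. In L6 corticothalamic nuclei the difference was -0.64 (SE 0.144, adjusted p = 0.00739), lost without Run GH of cohort 2 (adjusted p = 0.127).

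Gabra5 was called lower in cohort 2 in 6 pyramidal classes and in PV nuclei. In L6 corticothalamic nuclei it stood at 108 and 118 CPM in cohort 1 and 61.5, 63.5, 70.5 and 73.8 CPM in cohort 2. The cohorts did not overlap, the difference was -0.99 (SE 0.139, adjusted p = 5.96e-04), and the call held under all 14 alternatives. In L2/3 nuclei, where Gabra5 was low, the difference was -0.94 (SE 0.215, adjusted p = 0.00802), lost without Sed GH of cohort 2 (adjusted p = 0.0721). Mid-layer, L5 IT, L5 ET and deep-layer nuclei with Oprk1 differed by -0.59, -0.56, -0.53 and -0.58, and each of these calls was lost without Run GH of cohort 2 (adjusted p = 0.0845, 0.206, 0.193 and 0.400). The mid-layer and L5 ET calls were also lost without Sed GH of cohort 2, the L5 ET call without Run GH of cohort 1, and the Oprk1 call without Run SI. Over all alternatives the mid-layer call held under 12 of 14, the L5 IT call under 11, the L5 ET call under 7 and the Oprk1 call under 9, and after thinning to 1000 UMIs the Oprk1 difference was -0.18 (adjusted p = 0.734). The mid-layer class was 2 clusters in cohort 1 and 1 in cohort 2. Gabra5 stood at 88.9 and 81.4 CPM in the larger cluster of cohort 1 and at 37.3 and 46.0 CPM in the smaller, and the latter values overlap the 39.4 to 54.3 CPM of cohort 2. In PV nuclei the difference was -1.08 (SE 0.364, adjusted p = 0.0342), lost without either library of cohort 1 or without Run GH of cohort 2, and held under 5 of 13 alternatives. Free RNA held 51.9 to 59.4 CPM of Gabra5 in cohort 1 and 60.05 to 65.0 CPM in cohort 2, in background droplets that held a larger share of a nucleus's UMIs in cohort 1. With free RNA subtracted the 6 pyramidal classes were still called, with differences from -1.12 to -0.62 (adjusted p = 0.00227 to 0.0401), and PV nuclei were not (-1.23, adjusted p = 0.0818).

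Gabrb1 was called lower in cohort 2 in PV nuclei, with a log2 difference of -0.62 (SE 0.156, adjusted p = 0.00565), and in SST nuclei, with -0.57 (SE 0.166, adjusted p = 0.0141). PV nuclei stood at 559 and 558 CPM in cohort 1 and 425, 349.8, 463 and 389.7 CPM in cohort 2, with both values of cohort 1 above all 4 of cohort 2. With free RNA subtracted the differences were -0.29 (adjusted p = 0.242) in PV and -0.29 (adjusted p = 0.268) in SST nuclei, neither called. Both calls were lost without Run GH of cohort 2 and the PV call without Sed GH of cohort 2, and of 14 alternatives the PV call held under 10 and the SST call under 9. In astrocytes, where it was highest, Gabrb1 differed by -0.05 (SE 0.139, adjusted p = 0.799). Astrocytes held 4 other calls, Gabrg3 (log2 difference -1.20, SE 0.184, adjusted p = 2.54e-09), Gabrb2 (log2 difference -1.45, SE 0.241, adjusted p = 3.93e-08), Gabra4 (log2 difference -0.80, SE 0.244, adjusted p = 0.00555) and Gabra3 (log2 difference -0.97, SE 0.362, adjusted p = 0.0287). With free RNA subtracted Gabrb2 differed by -0.63 (adjusted p = 0.216), Gabra4 by -0.53 (adjusted p = 0.254) and Gabra3 by -0.33 (adjusted p = 0.746), so these 3 were no longer called, while Gabrg3 still was (-0.73, adjusted p = 0.0129). None of these 4 calls held in nuclei of at least 1000 genes (adjusted p = 0.101 to 0.361). The Gabra4 call was lost without Sed GH of cohort 2, and the Gabra3 call without either library of cohort 1 or without Run GH of cohort 2. Of 14 alternatives the Gabrg3 call held under 13, the Gabrb2 call under 12, the Gabra4 call under 9 and the Gabra3 call under 6. Summed pyramidal markers in astrocytes were 46.8% and 35.6% of their pyramidal level in cohort 1 and 22.0% to 37.5% in cohort 2. In cohort 2 a further cluster of 255 nuclei had Slc1a3 and Mertk among its leading genes. It stayed unnamed and was left out of the astrocyte class, and cohort 1 had no such cluster. Its part in these calls was not tested. Marked as doublets were 11.7% and 7.58% of astrocytes in cohort 1 and 6.32%, 0%, 4.5% and 1.49% in cohort 2. With doublets removed all 22 cohort calls were kept.

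**Figure D4:**
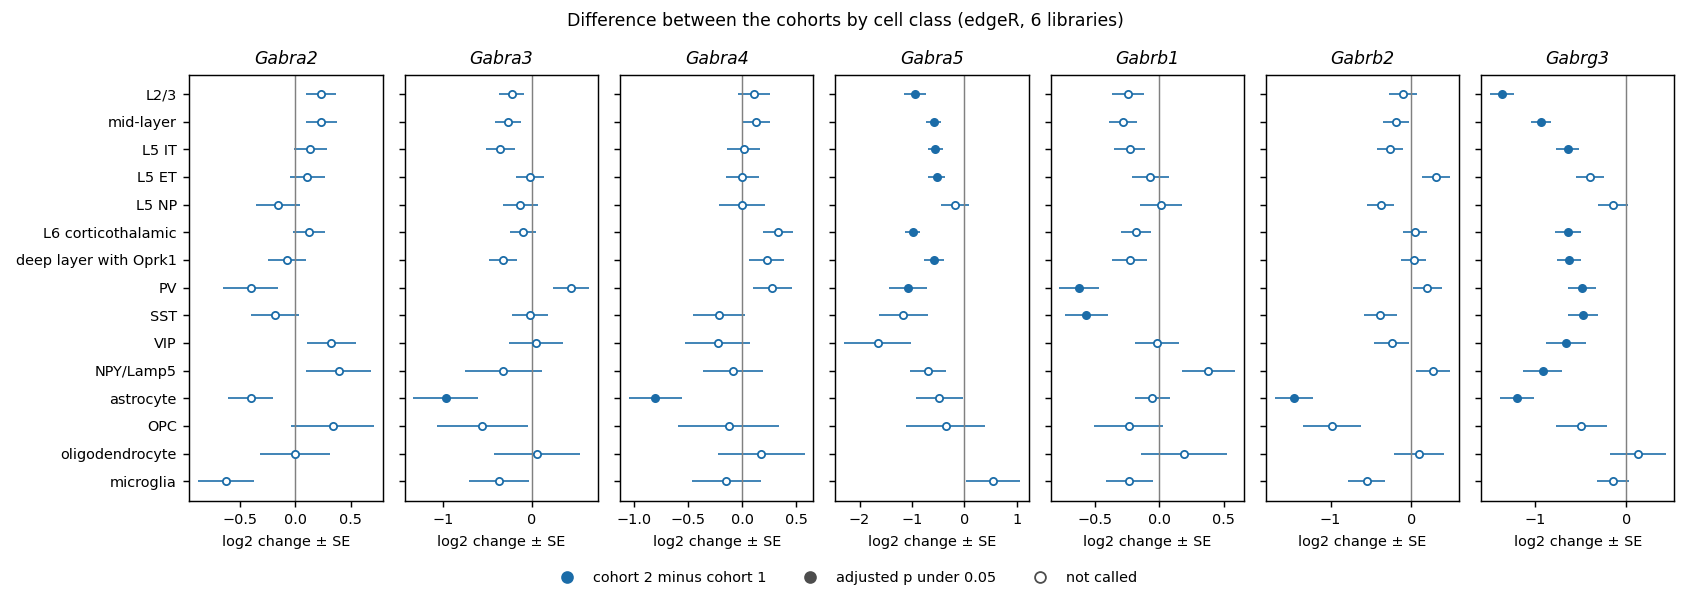
Fitted log2 difference with its SE between cohort 2 and cohort 1 for 7 subunit genes (panels) in 15 cell classes, from edgeR over 6 libraries, with filled points where the adjusted p was under 0.05. The 22 filled points all lie below 0, and Gabrg3 and Gabra5 hold 17 of them.

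Genes around the receptor were read from 2 further lists. Of 12 other subunit genes 5 were tested, in 61 pairs of a gene and a class. The maternal and housing terms called 0 of 61 each (edgeR), with 10 and 2 pairs at an unadjusted p under 0.05, and DESeq2 called 0 for either. Between cohorts 9 of 61 were called, against 27.5% of all pairs. Of these 6 were lower in cohort 2, against 12.4% of all pairs, and 3 higher, among them Gabrg1 in L2/3 nuclei (1.39). DESeq2 called 4 of the 56 to which it gave an adjusted p. Of 14 partners of the receptor, all 14 were tested in 191 pairs. The maternal and housing terms called 0 of 191 each, with 16 and 5 pairs at an unadjusted p under 0.05, and DESeq2 again called 0. Between cohorts 65 of 191 were called, against the 27.5% of all pairs. Of these 51 were lower in cohort 2, against the 12.4% of all pairs, and 14 higher. DESeq2 called 36 of the 170 to which it gave an adjusted p. Slc12a5, the chloride extruder KCC2 that keeps GABA inhibitory, was lower in 11 classes, with called differences from -1.65 to -0.66. Lhfpl4, which couples receptors to neuroligin 2, was lower in 10 classes, Shisa7, a receptor auxiliary protein, in 9, Plcl1, a receptor-binding phospholipase C-like protein, in 8, and Nlgn2, neuroligin 2 itself, in 7. Iqsec3, an exchange factor of inhibitory synapses, was lower in 4 classes and Zdhhc3, a palmitoyltransferase of gamma subunits, in 2. Gabarap, a receptor-associated trafficking protein, was higher in cohort 2 in 11 classes, by 1.62 to 3.04. Clptm1, which holds subunits in the endoplasmic reticulum, was higher in 2 classes and Gabarapl1 in 1, PV (1.06). Glial classes are among those counted, namely astrocytes for Slc12a5, Lhfpl4, Gabarap and Clptm1, microglia for Slc12a5 and oligodendrocytes for Plcl1. These glial classes also held pyramidal markers. Whether single partner calls held under the alternatives is not given. Gphn, the gene of the scaffold gephyrin, was called in 0 of 15 classes, with differences from -0.37 to 0.13. The median difference was -0.22 over the members, -0.01 over the other subunits and -0.28 over the partners, and between -0.04 and 0.02 over all genes of a class.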

How the data were processed

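Single-nucleus libraries were made from PL tissue with droplet (Chromium, 3 prime V3) chemistry. The authors aligned reads to mm10 with introns counted (Cell Ranger 6.0.0 per the labels) and deposited raw UMI counts of all barcodes, without removal of free RNA or doublets. Nuclei needed 500 to 4000 genes, at most 1% mitochondrial UMIs and a UMI minimum set per library as the 99th percentile of the largest barcodes divided by 10, since many background droplets of cohort 1 passed the gene limits. Each cohort was clustered apart in scanpy 1.11.5 (Pearson residuals, 3000 genes, 35 components, 20 neighbours, Leiden 0.6), without Gabr genes. Doublets marked by Scrublet were kept in the main values and removed as an alternative. Counts were summed per library and class and tested by quasi-likelihood in edgeR 4.0.16 under R 4.3.3 (filterByExpr, TMM, 2 residual degrees of freedom, Benjamini-Hochberg over all genes of a class), with DESeq2 1.42.0 as the other tool. Steps were tested on simulated data.

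Classes were compared within libraries by an exact 2-sided sign-flip test on log2 CPM, adjusted over all genes with a mean of at least 10 CPM, and adjustment over the members alone, which had been planned, is not given. Intervals are exact 95% intervals and cover counting error only. Expected free RNA was taken from droplets of 30 to 2000 UMIs under the minimum. Intronic counting means that a level is of nuclear, partly unspliced RNA, and reads from overlapping ends of Gabra4 and Gabrb1 depend on strand. The cohort pairs the GH libraries by the labels. Differences between cohorts in Run GH and in Sed GH correlated at 0.81 over 8836 genes in pyramidal and 0.74 over 9211 in inhibitory nuclei, and the cohort is a term of the main fit. All 7 members were named in every class, other subunits by counts, partners where called, and for each member the 3 genes of most similar level over classes (at least 20 CPM in 1 class), of which 1 is not reported here. The members and lists were chosen with earlier results of these data known.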

Additional observations from a re-analysis of the deposited data

Results flagged for a closer look

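Single libraries stood apart from the other 5 in 4 of the 35 class comparisons by Dixon's test at the 95% level, a mark that chance passes in about 1 in 20 groups. For inhibitory minus pyramidal nuclei, Gabrg3 was 0.43 on the log2 scale in Sed GH of cohort 1, the lowest value. For PV minus SST nuclei, Gabrb1 was -0.31 in Sed GH of cohort 2. For L2/3 minus layer 5 nuclei, Gabra5 was -2.64 in Sed GH of cohort 2, the shallowest library. For astrocytes minus pyramidal nuclei, Gabra3 was -4.72 in Sed SI of cohort 2, a value that rests on 1 UMI in astrocytes.

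All 7 members were also counted in background droplets, which were taken to hold no nucleus and give the free RNA levels used for the subtraction. Gabrg3 stood there at 906 to 1076 CPM in cohort 1 and 240.4 to 337 CPM in cohort 2. The mean over the 6 libraries was 213 CPM for Gabra2, 90.9 for Gabra3, 107 for Gabra4, 60.1 for Gabra5, 623 for Gabrb1, 231 for Gabrb2 and 524 for Gabrg3.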

How the results depend on the processing

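The count of class differences that went one way in all libraries was 28 of 35 and stayed between 25 and 30 under all 11 alternatives tried for it. The class of the highest level was kept for 5 to 7 of the 7 members, and only Gabra3 and Gabra4, whose top classes overlap, changed it. The mean of Gabrb1 in astrocytes moved to 2731 CPM with free RNA subtracted and to 2185 CPM in nuclei of at least 1000 genes, and that of Gabrg3 in L5 NP nuclei to 2821 CPM with free RNA subtracted. None of the 22 cohort calls, nor the housing call, changed sign under an alternative, but calls made only under an alternative did: Gabrb1 in L5 NP nuclei was higher in cohort 2 without Run GH of cohort 1 (0.33, edgeR, adjusted p = 0.0273) and lower without Sed GH of cohort 1 (-0.27, adjusted p = 0.0348). For the maternal term the count of 0 calls stayed 0 under every other setting, and was 0 to 1 when each library was left out. For housing the single call was lost, leaving 0, with no filter on low counts, cohort 2 only, DESeq2, doublets removed, thinning and free RNA subtracted, and leaving out each library gave 0 to 1. Without the replicate block, meaning without the cohort term that pairs the libraries, the count was 0 for housing and 0 for the maternal term, and Gabrb2 in astrocytes had a housing difference of -2.71 (edgeR, adjusted p = 0.825). Between cohorts the 22 calls became 12 with DESeq2 and 14 after thinning, 9 to 40 when each library was left out, and 15 to 25 under the other settings. These counts stand without the share of all gene and class pairs called under the same setting. Of the 22, 12 were shared with the DESeq2 calls and 13 with those after thinning. The remaining call after thinning was higher in cohort 2, Gabra4 in L6 corticothalamic nuclei (0.57). With free RNA subtracted 18 were called, 14 of them shared and 4 higher in cohort 2. The higher ones were Gabra2 (0.82) and Gabra4 (0.62) in L6 corticothalamic, Gabra3 in PV (0.71) and Gabrb1 in NPY/Lamp5 nuclei (0.80). The number of nuclei limits the glial and rarer interneuron classes most, where single libraries held as few as 21 (OPC) to 67 (VIP) nuclei.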

Other observations

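Levels in VIP interneurons and in glia other than astrocytes were as follows. In VIP interneurons, which often target other interneurons, Gabrb1 stood at 755 ± 71.9 CPM (SD, n = 6), Gabrg3 at 908 ± 256 and Gabra2 at 234 ± 45.4, while Gabra5 stood at 16.1 ± 11.8 CPM with 0 to 33 UMIs per library. In OPCs Gabrb1 stood at 552 ± 93.5 CPM, Gabrb2 at 179 ± 70.9 and Gabrg3 at 519.6 ± 155. In oligodendrocytes Gabrb1 stood at 613 ± 161 CPM and Gabrg3 at 621 ± 149.6, and in microglia at 761 ± 121 and 947 ± 94.9 CPM. In microglia the share of nuclei with a Gabrg3 UMI at 1000 UMIs was 45.3 to 56.5%, close to the 50.5 to 66.0% of SST nuclei, with summed pyramidal markers at 62.9% to 77.9% of their pyramidal level, so these glial levels are not read as expression by those cells.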
